A study of Sus scrofa with 10 samples.

Results

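The CHD (chromodomain helicase DNA-binding) genes encode large ATP-driven enzymes that move, space or evict nucleosomes. They were taken here as 8 genes chosen by symbol, CHD1, CHD2, CHD3, CHD4, CHD6, CHD7, CHD8 and CHD9, of 35670 gene identifiers in all, and all 8 were among the 17251 genes tested. They were picked with earlier results of these same libraries in view, and which values decided the choice is not recorded. Their differences between groups are therefore given as a description. Where a gene is said to lie past the threshold (adjusted p of 0.05 in edgeR's fit over all genes tested), that describes the fit and is no independent test of the gene or of the family.

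The 10 libraries hold nuclear RNA of cardiomyocytes sorted from the hearts of wild-type minipigs (Sus scrofa). All 10 sample titles, controls included, begin with AF, letters that they do not spell out. The animals of 3 libraries (8, 9 and 10) had received deoxycorticosterone acetate (DOCA), a mineralocorticoid used to raise blood pressure, together with JK07, which the series title calls an ERBB4 agonist. Those of 2 libraries (6 and 7) had received DOCA alone, and those of 5 control libraries (1 to 5) phosphate-buffered saline. Heart chamber, age, dose and duration are not given in the sources used here.

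Every CHD protein carries chromodomains, a domain type that in some proteins reads methylated histone tails, beside a helicase-type ATPase motor. CHD1 and CHD2 form the first subfamily and act along transcribed genes. CHD3, CHD4 and CHD5 form the second and are motor subunits of NuRD, a complex that joins nucleosome remodelling to histone deacetylation and represses genes. CHD6 to CHD9 form the third, which includes CHD7, the gene mutated in human CHARGE syndrome with its heart defects. In mouse cardiomyocytes CHD4 is known to keep skeletal and smooth muscle genes silent.

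Total estimated counts ran from 28.1 M to 106 M (M for mega) a library, of which 77.6% to 90.8% lay on 2 unplaced scaffolds that hold the most abundant loci. Outside these and the mitochondrial genome, the DOCA libraries held 6.87 M and 3.30 M, the DOCA plus JK07 libraries 9.03 M to 12.9 M and the controls 8.67 M to 13.9 M. Of 12620 genes with a control mean of at least 1 CPM, 22.51% and 25.99% were listed at 0 in the DOCA libraries, against 1.16% to 4.604% with JK07 and 0.372% to 3.11% in control. The 2 DOCA libraries were thus the shallowest outside the scaffolds, and the part of depth in the differences given here was not tested. Cardiomyocyte markers (13 of 15 listed genes found) summed to 5007 to 8460 CPM with JK07, 3586 to 5570 CPM with DOCA alone and 4344 to 5303 CPM in control. Fibroblast markers, 13 genes, summed to 903 to 2262, 999 to 3114 and 950 to 2926 CPM in the same order of groups, and endothelial markers, 12 genes, to 138 to 210, 147 to 240 and 140 to 310 CPM, so these ranges overlap. Smooth muscle and pericyte markers, 10 genes, summed to 119 to 160 CPM with JK07, 88.5 to 107 CPM with DOCA alone and 108 to 156 CPM in control, so the DOCA range lay just under the others. Macrophage markers, 12 genes, summed to 30.4 to 81.2, 65.6 to 78.8 and 45.8 to 159 CPM, mesothelial markers, 4 genes, to 3.30 to 28.04, 11.7 to 119 and 7.20 to 26.6 CPM, and lymphocyte markers, 9 genes, to at most 3.83 CPM in any library. Adipocyte markers (7 genes) summed to 25.4 to 41.6 CPM with JK07, 7.29 to 8.14 CPM with DOCA alone and 15.6 to 30.5 CPM in control, and Schwann cell and neuron markers (7 genes) to 8.82 to 13.5, 2.56 to 2.71 and 3.52 to 10.9 CPM. These last lists were lowest in the DOCA libraries, and their part in the results was not tested. The adipocyte markers ADIPOQ and LEP were at 0 in all 10 libraries, FABP4 in all but library 5 and PLIN1 in all but libraries 3 and 7. In libraries 1, 4 and 6 CIDEC was at 0 too, so the adipocyte sum there was of LPL and PLIN4 alone. The adipocyte sums are thus no clear measure of adipocytes. Among the other lists EMCN, LYVE1 and AIF1 were at 0 in both DOCA libraries, LYVE1 and AIF1 also in library 10 and AIF1 in library 2, and MYL2 in libraries 1, 6, 7 and 8. Fewer cells of a type and less RNA per cell cannot be told apart in such bulk samples.

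Levels per transcript length were compared between the genes first, over all 10 libraries. CHD2 was the most abundant CHD gene in all 10 libraries by TPM (transcript level scaled by length and library total). Its median was 24.5 TPM over the 5 controls, and it took 42.3% to 47.1% of the summed TPM of the 8 genes there. By control median CHD9 stood at 6.80 TPM, CHD4 at 6.33, CHD7 with 4.84, CHD6 with 4.62, CHD3 with 4.02, CHD8 with 3.90 and CHD1 with 3.00 TPM. On the log2(TPM + 0.1) scale, CHD2 exceeded CHD9 by 2.30 ± 0.74 (SD, n = 10 libraries), in 10 of 10 libraries, with exact permutation p = 0.00195, the smallest this test can give, and adjusted p = 0.0137 over 7 pairs. That mean includes the DOCA libraries, where CHD9 was low; over the 5 controls alone the difference was 1.92, in 5 of 5 libraries (exact permutation p = 0.0625, the smallest possible there, adjusted p = 0.438). CHD4 exceeded CHD7 by 0.36 ± 0.32 (SD, n = 10), in 9 of 10 libraries, with exact permutation p = 0.00781 and adjusted p = 0.0273. The adjusted p of CHD4 over CHD7 was 0.0547 in the exact permutation test without library 1, 3, 4, 5, 7, 9 or 10, whereas CHD2 over CHD9 stayed at 0.0273 or less without any 1 library. The other 5 neighbouring pairs did not differ beyond their spread (exact permutation, adjusted p = 0.230 to 0.289), CHD9 against CHD4 and the 4 from CHD7 down to CHD1. CHD9 exceeded CHD4 in 2 of 5 controls and 2 of 10 libraries, with a mean difference of -0.57 over the 10 libraries and 0.09 over the controls, so these genes have no settled order.

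The family member left out of the choice, CHD5, which is best known from neurons and lies on chromosome 6 (67017417 to 67086711), was near the limit of detection. It was listed at 0 in all 3 DOCA plus JK07 libraries and both DOCA libraries, and in control at 0 in library 1 and at 1.73, 2.40, 2.48 and 2.24 CPM (count level scaled by library total) in libraries 2 to 5. Its mean coverage was 1.17 to 1.90 reads per base in those 4 controls. In each library 2.51% to 8.81% of the coverage values above 0 lay under 1, so few genes are listed below that level, and no fold was read from CHD5.

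DOCA against control asked how the genes stood after DOCA alone. Of the 8 genes, 4 were lower in DOCA past the threshold of the fit and did not overlap with control, CHD9, CHD8, CHD1 and CHD2, and 0 were higher. With upper quartile scaling 2 remained past it, CHD1 and CHD9, and with quality weights 1, CHD9. Over all genes tested 19.7% were lower and 5.73% higher by that threshold, and 27.6% were lower and 10.2% higher without overlap. Among the 2851 genes with a mean of at least 10 CPM, a cut chosen after seeing the data, 22.9% were lower and 13.2% higher. Since the genes were picked on these libraries, nothing is read from their count against those shares. The median log2 change was -0.37 over the 8 genes and -0.63 over all genes tested (-0.15 over those of at least 10 CPM).

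**Figure D1:**
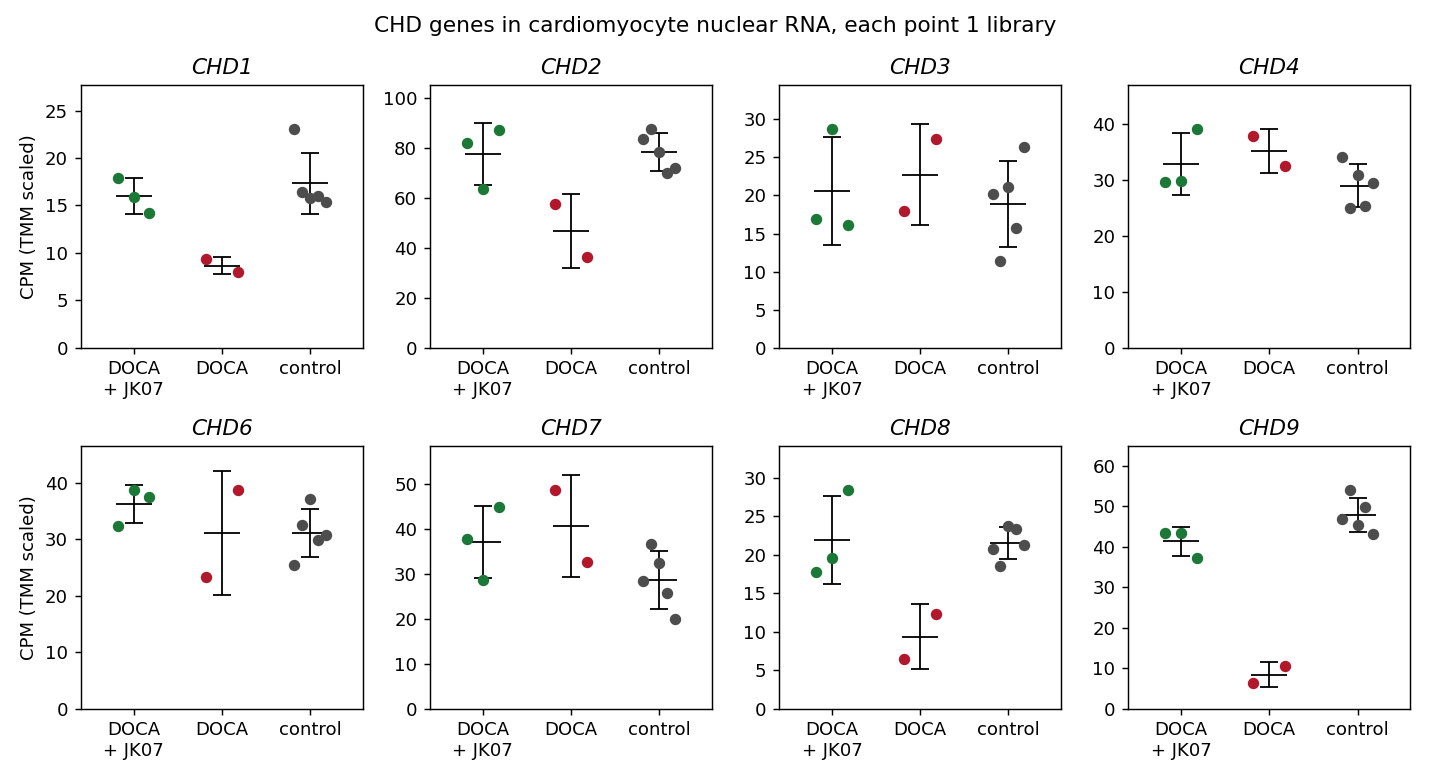
CPM (vertical axes, from 0) of the 8 CHD genes in DOCA plus JK07 (n = 3), DOCA (n = 2) and control (n = 5); points are libraries and bars are the mean ± SD. The DOCA points of CHD1, CHD2, CHD8 and CHD9 lie below all points of both other groups, and those of CHD3, CHD4, CHD6 and CHD7 do not.

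CHD9 stood furthest apart. It belongs to the third subfamily and is known as a coactivator partner of nuclear receptors. On chromosome 6 (ENSSSCG00000033591, 31830505 to 31980085) it had 6.22 and 10.6 CPM in the DOCA libraries, against 46.8, 54.2, 45.4, 49.8 and 43.2 CPM in the controls. Both DOCA values lay far under the lowest control, at 12.99% and 22.1% of the control mean. The means were 8.40 ± 3.08 CPM in DOCA (SD, n = 2) and 47.9 ± 4.26 CPM in control (SD, n = 5), a log2 change of -2.51 (SE 0.24), and -2.18 without library 6 or -2.95 without library 7. Its mean coverage was 1.62 and 2.11 reads per base in DOCA, against 18.3 to 30.0 in control. The DOCA values thus lay near the level of 1 under which few genes are listed, and the part of this in the difference was not tested.

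CHD8, a chromatin factor known to bind beta-catenin and to restrain its target genes, had 6.40 and 12.3 CPM in DOCA, against 20.8, 18.5, 23.7, 23.3 and 21.2 CPM in control (ENSSSCG00000002127, chromosome 7, 77719582 to 77780146). Library 6 was the lower of the DOCA pair, and neither reached the control range. The log2 change was -1.20 (SE 0.29), or -0.80 and short of the threshold without library 6 and -1.75 without library 7. Its coverage in DOCA was 1.35 and 1.98 reads per base, against 7.21 to 12.8 in control, likewise near 1.

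CHD1, which is known to follow elongating RNA polymerase and to bind methylated histone H3, had 9.32 and 8.03 CPM in DOCA, against 23.1, 16.4, 15.8, 16.0 and 15.4 CPM in control (ENSSSCG00000014177, chromosome 2, 105113668 to 105203119). The DOCA values were close together and under every control, while control library 1 stood above the rest. The log2 change was -0.998 (SE 0.21), and -0.82 without library 1. CHD2, its nearest relative and a gene of human epileptic encephalopathy, had 57.4 and 36.3 CPM in DOCA, against 83.6, 87.7, 78.5, 70.1 and 71.8 CPM in control (ENSSSCG00000002266, chromosome 7, 85983837 to 86106938). Here library 7 was the lower DOCA library, the reverse of CHD8 and CHD9. The CHD2 change of -0.74 (SE 0.23) was near the median of all genes tested (-0.63) and below that of genes of at least 10 CPM (-0.15). Leaving out library 1, 2, 3, 4, 5, 7, 8 or 10 put it short of the threshold, with a log2 change of -0.45 without library 7.

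CHD3, CHD4, CHD6 and CHD7 overlapped between DOCA and control. CHD4, the main NuRD motor (ENSSSCG00000000697, chromosome 5, 64065992 to 64105173), had 37.9 and 32.4 CPM in DOCA, against 34.1, 25.0, 30.8, 25.3 and 29.5 CPM in control. Library 6 lay above every control and library 7 within their range, with a log2 change of 0.28 (SE 0.19, 95% interval -0.08 to 0.65). This and the other 95% intervals are normal approximations and are too narrow for so few libraries. CHD3, the alternative NuRD motor (ENSSSCG00000021363, chromosome 12, 53139366 to 53163243), had 17.996 and 27.4 CPM in DOCA, against 20.2, 11.4, 21.0, 15.7 and 26.3 CPM in control, where values were widely spread. Its log2 change was 0.26 (SE 0.35, 95% interval -0.42 to 0.95).

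CHD7 (ENSSSCG00000006231, chromosome 4, 72573453 to 72694146) had 48.7 and 32.7 CPM in DOCA, against 28.4, 36.6, 32.3, 25.7 and 19.9 CPM in control. Library 6 was the highest of all 10 libraries and library 7 lay within the controls. The log2 change was 0.51 (SE 0.27, 95% interval -0.02 to 1.04). CHD6, known to be recruited in the response to oxidative DNA damage in human cells (ENSSSCG00000007360, chromosome 17, 44048098 to 44265431), had 23.3 and 38.8 CPM in DOCA, one below and one above all controls, which had 25.4, 32.4, 37.2, 29.8 and 30.8 CPM. The log2 change was -0.0025 (SE 0.22, 95% interval -0.44 to 0.43), and the library left out set its sign, at 0.32 without library 6 and -0.42 without library 7. The signs of CHD3, CHD4 and CHD7 also turned with the scale, to -0.24, -0.25 and -0.03 in limma on log2(TPM + 0.1), where the median of all genes tested was -0.98.

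A share within the family does not depend on how libraries are scaled, but the shares of the 8 genes are tied, since each is larger where others are lower. CHD9 made up 1.90% and 3.64% of the summed TPM of the 8 genes in DOCA, against 10.4% to 12.8% in control. It was the least abundant of the 8 genes in both DOCA libraries while it had rank 2 or 3 in every control. CHD4 made up 18.1% and 17.5% in DOCA, against 8.97% to 12.1% in control, and CHD7 17.2% and 13.04%, against 5.78% to 9.71%. In TPM itself neither was higher, with CHD4 at 5.47 ± 1.64 in DOCA (SD, n = 2) and 6.44 ± 0.934 in control (SD, n = 5), and CHD7 at 4.53 ± 0.595 and 4.70 ± 1.12 TPM. CHD1 made up 3.81% and 3.69% in DOCA, against 4.84% to 6.99% in control. The shares of CHD9, CHD4, CHD7 and CHD1 did not overlap between the groups on this scale. Within the third subfamily, the TPM ratio of CHD7 to CHD9 was 9.06 and 3.58 in DOCA, against 0.532 to 0.824 in control, so CHD7 exceeded CHD9 in both DOCA libraries and in 0 of 5 controls. The shares of CHD2 were 41.1% and 29.3% in DOCA, also below its control range, and those of CHD8 were 2.47% and 5.36%, against 5.34% to 7.61%, where library 7 touched the control range. The summed CPM of the 8 genes was 207 and 199 in DOCA and 256 to 285 in control.

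**Figure D2:**
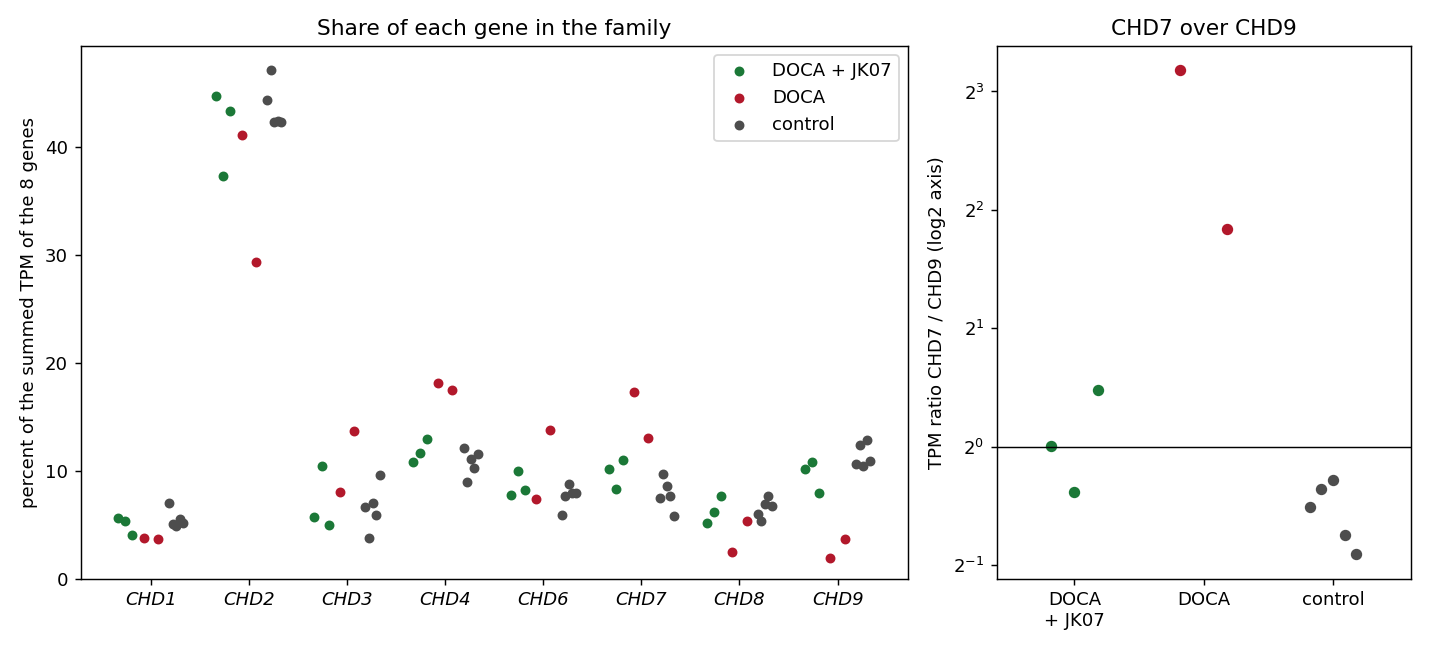
Left, percent of the summed TPM of the 8 CHD genes (vertical axis) taken by each gene; right, TPM ratio of CHD7 to CHD9 on a log2 axis, with a line at 1; points are libraries of DOCA plus JK07 (n = 3), DOCA (n = 2) and control (n = 5). CHD9 has shares of 1.90% and 3.64% in DOCA, and the ratio there is 9.06 and 3.58 while every control lies under 1.

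By subfamily, the first had both members lower in DOCA, the second had its 2 measured members overlapping with control, and the third held both the largest difference, CHD9, and the highest log2 change of the 8, that of CHD7, which was 0.51 by TMM and -0.03 in limma on log2(TPM + 0.1). Gene span on the chromosome, which the choice did not use, overlapped between the 4 lower genes (60.6 to 150 kb) and the other 4 (23.9 to 217 kb). Annotated loci lie within CHD3 (1 unnamed), CHD4 (SCARNA11) and CHD8 (SNORD8 and SNORD9) on the strand of the host gene, and within CHD1 (1 unnamed) on the other strand. The locus in CHD3 had means of 97.1 TPM with JK07, 98.5 TPM with DOCA alone and 111 TPM in control, against 4.74, 3.55 and 3.90 TPM for CHD3 itself. The other loci had group means of at most 1.16 TPM. How reads were divided there was not tested.

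DOCA plus JK07 against DOCA asked how the genes stood when JK07 was added. The comparison shares its DOCA libraries with the one above, so its values are not a second, separate observation. Of the 8 genes, 3 were higher past the threshold, CHD9, CHD8 and CHD1, and 0 were lower, beside 14.7% higher and 2.25% lower over all genes tested, or 18% and 4.21% among genes of at least 10 CPM. Without overlap 4 were higher, the same 3 and CHD2, beside 30.3% of all genes tested, and 0 were lower, beside 9.82%. With upper quartile scaling, with quality weights or with the libraries of the 2 groups alone, 1 passed, CHD9. The median log2 change was 0.47 over the 8 genes and 0.55 over all genes tested.

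CHD9 had 43.5, 43.3 and 37.2 CPM with JK07, against 6.22 and 10.6 CPM with DOCA alone, a log2 change of 2.30 (SE 0.25), which was 1.97 to 2.74 when any 1 library was left out. All 3 JK07 libraries lay far above the higher DOCA library. CHD8 had 17.7, 19.5 and 28.4 CPM with JK07, against 6.40 and 12.3 CPM with DOCA alone, with a log2 change of 1.23 (SE 0.31). It fell short of the threshold without library 1, 4, 6 or 10. CHD1 had 17.9, 15.9 and 14.2 CPM with JK07, against 9.32 and 8.03 CPM with DOCA alone, and a log2 change of 0.88 (SE 0.22), short of the threshold without library 7, 8 or 9. CHD2 had 82.0, 63.5 and 87.2 CPM with JK07, against 57.4 and 36.3 CPM with DOCA alone, a log2 change of 0.73 (SE 0.24) that lay short of the threshold but passed without library 6 (1.10).

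The other 4 genes overlapped between DOCA plus JK07 and DOCA alone. CHD4 had 29.6, 29.7 and 39.1 CPM with JK07, against 37.9 and 32.4 CPM with DOCA alone (log2 change -0.10, SE 0.21, 95% interval -0.50 to 0.30). CHD3 had 17.0, 28.7 and 16.1 CPM, against 17.996 and 27.4 CPM (-0.14, SE 0.38, 95% interval -0.89 to 0.62). These 2 NuRD motors thus varied as much within a group as between the groups. CHD7 had 37.7, 28.7 and 44.7 CPM with JK07, against 48.7 and 32.7 CPM with DOCA alone (-0.14, SE 0.30, 95% interval -0.73 to 0.45). CHD6 had 32.4, 38.8 and 37.5 CPM with JK07, against 23.3 and 38.8 CPM with DOCA alone (0.22, SE 0.24, 95% interval -0.26 to 0.70). CHD9 made up 10.1%, 10.8% and 7.89% of the summed TPM of the 8 genes with JK07, against 1.90% and 3.64% with DOCA alone, so the groups did not overlap. The TPM ratio of CHD7 to CHD9 was 1.00, 0.767 and 1.39 with JK07, between the DOCA values and the control values save for library 9, which lay within the control range.

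**Figure D3:**
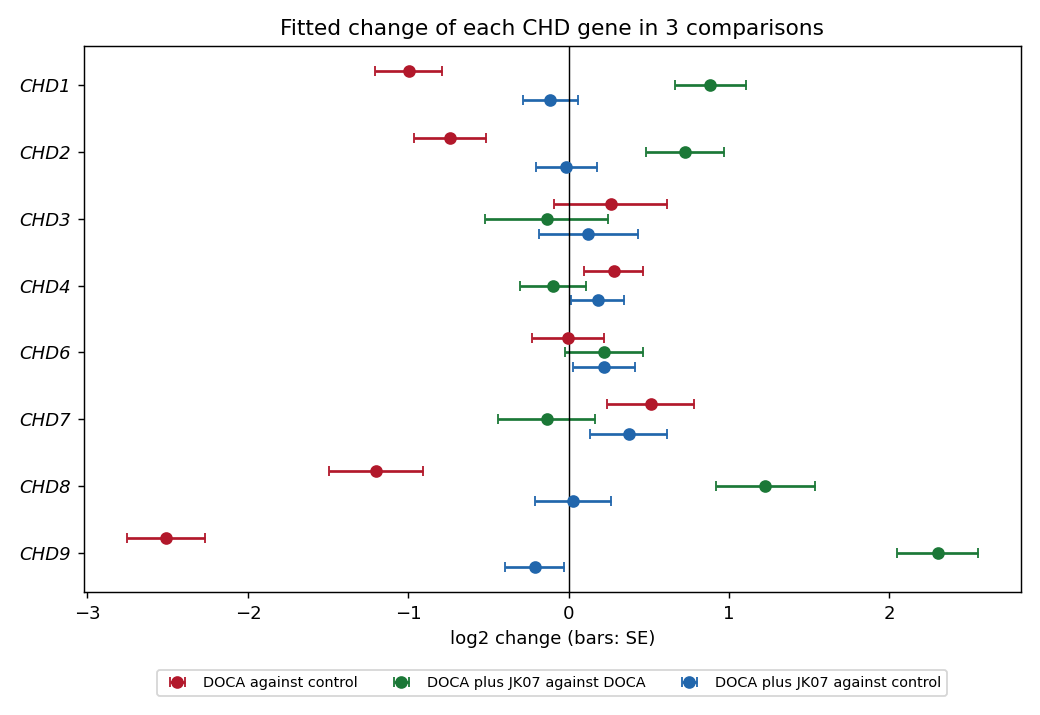
Fitted log2 change (horizontal axis, with SE bars) of the 8 CHD genes in each of the 3 comparisons between DOCA plus JK07, DOCA and control. CHD9 lies at -2.51, 2.30 and -0.21 for DOCA over control, DOCA plus JK07 over DOCA and DOCA plus JK07 over control; the first and second share the DOCA libraries.

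DOCA plus JK07 against control asked whether the treated group differed from untreated animals. No CHD gene passed the threshold or stood without overlap, beside 0% of all genes tested past the threshold in either direction, and 3.37% higher and 2.45% lower without overlap. At an unadjusted p under 0.05 edgeR gave 803 of 17251 genes and 0 of the 8, and DESeq2 gave 116 genes past its adjusted threshold and 0 of the 8. CHD9 averaged 41.4 ± 3.60 CPM with JK07 (SD, n = 3) and 47.9 ± 4.26 CPM in control (SD, n = 5), a log2 change of -0.21 (95% interval -0.57 to 0.15). CHD8 averaged 21.9 ± 5.76 CPM with JK07 (SD, n = 3) and 21.5 ± 2.13 CPM in control (SD, n = 5), with an interval of -0.44 to 0.49. CHD1 averaged 16.0 ± 1.86 and 17.3 ± 3.24 CPM, with an interval of -0.45 to 0.23, and CHD2 77.6 ± 12.4 and 78.3 ± 7.53 CPM, with an interval of -0.39 to 0.36. The largest difference was that of CHD7, 37.0 ± 8.03 CPM with JK07 and 28.6 ± 6.38 CPM in control (0.37, 95% interval -0.10 to 0.84). Intervals of this width do not show that the groups were equal.

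Other chromatin genes, listed by function, were set beside the family. Of 118 tested, 35 were lower and 14 higher in DOCA than in control (29.7% and 11.9%, beside 19.7% and 5.73% of all genes tested), with a median log2 change of -0.32. Among all genes of at least 10 CPM the shares were 22.9% and 13.2% and the median was -0.15, against -0.63 for all genes tested. The lists were not cut at that level, so both backgrounds bear on each list below. The 35 include 9 genes listed at 0 in both DOCA libraries. Those entered the test through the other groups, and the part of depth in them was not tested. Under upper quartile scaling the same lists held 21 lower and 21 higher, and in limma 48 lower and 0 higher on log2(TPM + 1) and 45 lower and 0 higher on log2(TPM + 0.1), so the split depends on the scale. Of the genes named from these lists below, the 16 lower in DOCA passed in both limma fits and 8 of them under upper quartile scaling. The 8 named as higher passed by TMM and upper quartile scaling but in neither limma fit, where their log2 changes were 0.03 to 0.72 and 0.03 to 0.90. In DOCA plus JK07 against DOCA, 29 were higher and 4 lower (24.6% and 3.39%, beside 14.7% and 2.25% of all genes tested), against 19 and 12 under upper quartile scaling and 59 and 0 or 55 and 0 in the limma fits on log2(TPM + 1) and log2(TPM + 0.1), and in DOCA plus JK07 against control 0 of 118 passed in edgeR or DESeq2, with 4 at an unadjusted p under 0.05 in edgeR.

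**Figure D4:**
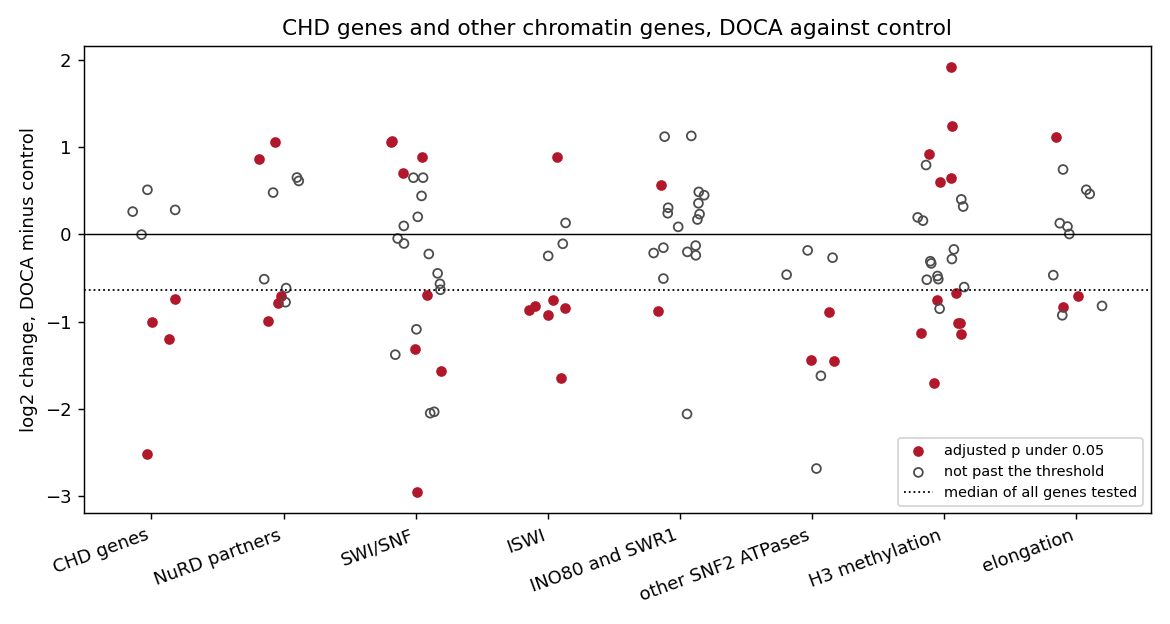
Log2 change in DOCA minus control (vertical axis) of the CHD genes and of 7 lists of other chromatin genes; filled points have an adjusted p under 0.05 in edgeR, open points do not, the dotted line is the median of all genes tested (-0.63), and genes at 0 in a whole group are left out. CHD9, at -2.51, is the lowest CHD gene, and SS18, at -2.95, is the lowest filled point among the lists.

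NuRD partners, listed here as subunits of the complex together with other proteins tied to CHD4, had 5 lower and 2 higher of 13 in DOCA against control (median -0.62). These were 38.5% and 15.4%, beside 19.7% and 5.73% of all genes tested (median -0.63). The 5 lower include ADNP and POGZ, which are not subunits of NuRD, and 2 genes at 0 in DOCA, so the share is not one of NuRD subunits alone. HDAC2, a deacetylase of the complex, and MTA3, a scaffold subunit, were listed at 0 in both DOCA libraries, against means of 4.14 ± 0.587 and 2.55 ± 0.244 CPM in control (SD, n = 5). The scaffold MTA1 was higher by TMM, at 24.1 ± 1.41 CPM in DOCA (SD, n = 2), against 13.3 ± 1.17 CPM in control (SD, n = 5), a log2 change of 0.86 (SE 0.19, edgeR adjusted p = 0.009). MBD2, which binds methylated DNA, had a log2 change of 1.06 (edgeR adjusted p = 0.0161, and 0.0821 without library 6). POGZ, a zinc finger protein, fell by 1.00 on the log2 scale (edgeR adjusted p = 0.00462), and ADNP, a partner of CHD4, by 0.79 (edgeR adjusted p = 0.0121, and 0.0693 without library 6).

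ISWI subunits, which space nucleosomes evenly, had 7 lower and 1 higher of 11 in DOCA against control (median -0.82). These were 63.6% and 9.09%, beside 19.7% and 5.73% of all genes tested (median -0.63). BAZ2B, a bromodomain subunit, fell to 11.1 ± 3.02 CPM in DOCA (SD, n = 2), against 34.8 ± 4.28 CPM in control (SD, n = 5), a log2 change of -1.64 (SE 0.21, edgeR adjusted p = 0.000369). BPTF changed by -0.86 (edgeR adjusted p = 0.00983) and BAZ1B by -0.93 (edgeR adjusted p = 0.0197). Without library 6 BAZ1B changed by -0.59 (edgeR adjusted p = 0.101), and it also missed the threshold without library 1 or 4 (adjusted p = 0.0502 and 0.0576). CECR2 changed by 0.88 (edgeR adjusted p = 0.024), and 0.59 without library 6 (adjusted p = 0.164). POLE3, a histone-fold subunit, was listed at 0 in both DOCA libraries, against 1.15 ± 0.333 CPM in control (SD, n = 5).

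Other ATPases of the SNF2 type, the wider family to which CHD motors belong, had 6 lower and 0 higher of 11 (median -1.45). These were 54.5% and 0%, beside 19.7% and 5.73% of all genes tested (median -0.63). ATRX, which deposits histone H3.3 with its partner DAXX, fell to 9.05 ± 0.779 CPM in DOCA (SD, n = 2), against 24.6 ± 3.83 CPM in control (SD, n = 5), a log2 change of -1.44 (SE 0.19, edgeR adjusted p = 0.000475). SHPRH changed by -1.45 (edgeR adjusted p = 0.00313) and BTAF1, which removes TBP from DNA, by -0.89 (edgeR adjusted p = 0.0201, and 0.104 without library 7). SMARCAD1, ZRANB3 and HELLS were listed at 0 in both DOCA libraries, against control means of 7.79, 1.39 and 1.18 CPM, and ZRANB3 passed only with all libraries or without library 1. They make up 3 of the 6 lower genes, and no fold was read from them.

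SWI/SNF subunits, which slide and eject nucleosomes at enhancers, counted 5 lower and 4 higher genes of 24 (median -0.34). These were 20.8% and 16.7%, beside 19.7% and 5.73% of all genes tested (median -0.63), so the lower share was near that of all genes. SS18 fell to 1.79 ± 0.501 CPM in DOCA (SD, n = 2), against 13.8 ± 5.14 CPM in control (SD, n = 5), a log2 change of -2.95 (SE 0.51, edgeR adjusted p = 0.00243). PBRM1, a bromodomain subunit, changed by -1.57 (SE 0.16, edgeR adjusted p = 8.08e-05). ARID2 changed by -1.31 (edgeR adjusted p = 0.0215), by -0.80 without library 6 and -2.11 without library 7, and it missed the threshold without library 2, 4 or 6 (adjusted p = 0.0526, 0.0583 and 0.0638). BCL7C changed by 1.06 (edgeR adjusted p = 0.0238, and 0.123 without library 7), and BCL7A was listed at 0 in both DOCA libraries, against 1.89 CPM in control.

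Subunits of INO80 and SWR1 type complexes, which exchange histone H2A variants, had 3 lower and 1 higher of 21 (median 0.09). These were 14.3% and 4.76%, beside 19.7% and 5.73% of all genes tested (median -0.63). ACTR6 and YEATS4 were listed at 0 in both DOCA libraries, against control means of 1.98 and 0.463 CPM, and both count among the 3 lower. INO80D changed by -0.88 (edgeR adjusted p = 0.0182), by -0.52 without library 6 and -1.36 without library 7, and missed the threshold without library 2 or 6 (adjusted p = 0.0501 and 0.0584). The transcription factor YY1 changed by 0.56 (edgeR adjusted p = 0.0264), and missed it without library 3 or 6 (adjusted p = 0.0559 and 0.0924).

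Enzymes that write or erase methylation of histone H3 lysine 4, 27 and 36 had 7 lower and 5 higher of 26 (median -0.32). These were 26.9% and 19.2%, beside 19.7% and 5.73% of all genes tested (median -0.63). ASH1L, a histone H3 methyltransferase, fell to 16.6 ± 6.95 CPM in DOCA (SD, n = 2), against 53.9 ± 2.42 CPM in control (SD, n = 5), a log2 change of -1.70 (SE 0.23, edgeR adjusted p = 0.000592). NSD1, also a methyltransferase, changed by -1.14 (edgeR adjusted p = 0.00553). KMT2B changed by 1.25 (edgeR adjusted p = 0.0104), and 0.81 without library 6 (adjusted p = 0.11). The demethylase KDM6B stood at 55.0 (library 6) and 9.27 CPM (library 7) in DOCA, against 8.52 ± 2.71 CPM in control (SD, n = 5). Its log2 change of 1.92 (edgeR adjusted p = 0.0305) was 0.12 without library 6, and without library 3, 4 or 5 the adjusted p was 0.0633, 0.0601 and 0.0622. Elongation partners of CHD1 had 2 lower and 1 higher of 12 (median 0.05), or 16.7% and 8.33%, near the shares of all genes tested. Among them CDK9, the elongation kinase, was at 29.1 ± 0.392 CPM in DOCA (SD, n = 2), against 13.5 ± 2.09 CPM in control (SD, n = 5). Its log2 change was 1.11 (edgeR adjusted p = 0.00607). CDC73 of the PAF complex changed by -0.83 and SUPT16H of the histone chaperone FACT by -0.70 (edgeR adjusted p = 0.017 and 0.0171), and without library 7 their adjusted p was 0.062 and 0.0602.

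By list, the genes that passed in DOCA plus JK07 against DOCA are given beside the same shares of all genes tested, 14.7% higher and 2.25% lower. Among genes of at least 10 CPM those shares were 18% and 4.21%. Genes listed at 0 with DOCA alone, such as HDAC2 and SMARCAD1, count among the higher. Higher and lower numbered 4 and 1 of 13 NuRD partners, 4 and 0 of 11 ISWI subunits, 5 and 0 of 11 other SNF2 type ATPases, 4 and 2 of 24 SWI/SNF subunits, 3 and 0 of 21 INO80 and SWR1 type subunits, 7 and 0 of 26 histone H3 methylation enzymes and 2 and 1 of 12 elongation partners. The median log2 change was -0.04 for the INO80 and SWR1 type list and 0.13 for elongation partners, and 0.45 to 1.32 for the other 5 lists. It was 0.55 for all genes tested and 0.22 for those of at least 10 CPM. ATRX had 22.5 ± 1.31 CPM with JK07 (SD, n = 3) and 9.05 ± 0.779 CPM with DOCA alone (SD, n = 2; log2 change 1.32, edgeR adjusted p = 0.00125). BAZ2B had 35.4 ± 1.99 and 11.1 ± 3.02 CPM (1.67, edgeR adjusted p = 0.000509), PBRM1 20.2 ± 1.65 and 7.32 ± 0.721 CPM (1.46, edgeR adjusted p = 0.000176) and ASH1L 47.2 ± 0.170 and 16.6 ± 6.95 CPM (1.51, edgeR adjusted p = 0.00184). CDK9 had 14.4 ± 3.77 CPM with JK07 and 29.1 ± 0.392 CPM with DOCA alone (-1.02, edgeR adjusted p = 0.022, and 0.0552 without library 6; it missed the threshold in both limma fits on TPM). HDAC2, listed at 0 with DOCA alone, had 3.80 ± 0.489 CPM with JK07 (SD, n = 3), and SMARCAD1 6.69 ± 0.888 CPM.

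The genes whose profile over the 10 libraries was most like the mean standardised profile of the 8 CHD genes, among 4760 named genes with a mean of at least 5 CPM, were PRRC2C (r = 0.956), ARNT (0.933), YLPM1 (0.924), FBXO42 (0.922) and ITSN1 (0.919). ARNT encodes the shared partner of the hypoxia and dioxin receptors, FBXO42 an F-box protein and ITSN1 a scaffold of endocytosis. PRRC2C had 70.3 ± 6.41 CPM with JK07 (SD, n = 3), 37.9 ± 2.98 CPM with DOCA alone (SD, n = 2) and 63.7 ± 5.68 CPM in control (SD, n = 5). The correlations share libraries and depth, carry no p and rest on the 2 DOCA libraries. The mean profile followed CHD8 (r = 0.838), CHD9 (0.742), CHD2 (0.685) and CHD1 (0.683) more than CHD6 (0.451), CHD4 (0.079), CHD3 (-0.029) and CHD7 (-0.083).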

How the data were processed

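Tools named in the submitters' processing notes are SAMtools, StringTie and edgeR, with Sscrofa11.1 as genome build. The aligner, tool versions, annotation release and strand setting are not given in the sources used here. A gene table for each library lists 35670 identifiers with coverage (a signal of reads per base), FPKM and TPM, per the file headers. A single deposited table of estimated counts has a column per library but no gene column, so its lines were matched to the sorted identifiers. With that match, 99.998% of values were above 0 in both kinds of table or in neither one. The share was 62.6% when moved by 1 line. Count and coverage of each CHD gene correlated at 0.993 or more over the 10 libraries. The deposited counts were whole, so rounding changed none. The files name 17640 identifiers, and a reference table of gene symbols named 119 more. Each of the 8 CHD symbols matched 1 identifier.

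Genes were tested in edgeR 4.0.16 (R 4.3.3; quasi-likelihood F test) with TMM scaling, filterByExpr and a single model of all 10 libraries with no covariate beside group. Benjamini-Hochberg adjustment ran over all 17251 genes tested, separately in each comparison, with a threshold of 0.05. CPM values are scaled by TMM. Errors are SD over libraries for CPM and TPM, and approximate standard errors (SE) for log2 changes. Levels of the genes were ordered by median TPM in control and neighbours compared by an exact paired permutation test on log2(TPM + 0.1), two-sided, adjusted over 7 pairs. Alternatives were other scalings, no filter, DESeq2 1.42.0, limma 3.58.1 on log2 TPM and with quality weights, fewer groups, and each library left out. The test scripts were tested on simulated data. Named genes were the 8 CHD genes, CHD5, up to 4 called genes per list and comparison by size of change, up to 3 called genes at 0 in a whole group, and the 5 genes most like the family profile. Members and lists were chosen with earlier results of these data known. Nothing in the labels says which animal each library is from, so the spread behind the p-values is that between these libraries and may be technical.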

Additional observations from a re-analysis of the deposited data

Results flagged for a closer look

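CHD1 in control library 1 stood at 23.1 CPM, against 15.4 to 16.4 CPM in the other 4 controls. Its gap to the nearest control was 0.870 of the range of the group, above Dixon's 95% critical value of 0.71 for 5 samples. Control groups were checked this way for 8 genes in CPM and in TPM, 16 in all, and chance alone would be expected to single out about 1 in 20. Without library 1 the log2 change of CHD1 in DOCA against control was -0.82 in place of -0.998.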

How the results depend on the processing

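No paired analysis was possible because the labels number the libraries 1 to 10 and no number is shared between groups. Among log2 changes of the 8 CHD genes under the alternatives, 409 values moved by less than the SE of the main log2 change. Another 71 moved by more, and 0 past the threshold turned sign. CHD9 passed the threshold under every alternative run in DOCA against control and in DOCA plus JK07 against DOCA.

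In DOCA against control, 4 CHD genes, 49 other chromatin genes and 4391 genes in all passed. Upper quartile scaling left 2 CHD genes. Quality weights left 1 CHD gene, 5 other chromatin genes and 161 genes, and rescaled TPM, chosen after seeing the data, 26 other chromatin genes. In DOCA plus JK07 against DOCA, 3, 33 and 2930 passed. There 1 CHD gene was left by upper quartile scaling, by quality weights, by the libraries of the 2 groups alone and by rescaled TPM. Other chromatin genes numbered 59 in limma on log2(TPM + 1), 55 on log2(TPM + 0.1), 0 with quality weights, 14 with the 2 groups alone and 16 with rescaled TPM. Genes in all numbered 5482, 5501 and 5 in those limma fits and 5049 in DESeq2. Leaving out 1 library gave 2277 to 4455 genes, the most without library 7, and 20 to 48 other chromatin genes, the fewest without library 8. In DOCA plus JK07 against control, where 0 genes passed, limma on log2(TPM + 0.1) gave 12, rescaled TPM 12, quality weights 8 and DESeq2 116. Upper quartile scaling split the calls into 1523 higher and 2868 lower in DOCA against control (988 and 3403 with TMM) and 2095 and 752 in DOCA plus JK07 against DOCA (2542 and 388), and moved the median of all genes to -0.39 and 0.31. Neighbouring pairs that differed in level numbered 2, and 1 to 2 with 1 library left out. In the 5 controls alone no pair could pass, since the smallest possible exact permutation p there was 0.0625. The cause of the other shifts was not tested. Without library 6 or 7, DOCA has 1 library, assumed to vary like the others. The coverage of CHD8 and CHD9 in DOCA was 1.35 to 2.11 reads per base, and the part of depth in their values was not tested.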

Other observations

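Skeletal and smooth muscle contractile isoforms, which CHD4 is known to keep silent in mouse cardiomyocytes, were described because CHD4 itself overlapped between the groups. Of 15 tested (22 of 23 found), 0 were higher and 2 lower in DOCA against control, beside 5.73% and 19.7% of all genes tested, with a median log2 change of -0.58. The 2 were MYH1 and MYH4, fast skeletal myosin heavy chains, listed at 0 in both DOCA libraries, against 4.06 ± 1.36 and 3.49 ± 1.22 CPM in control (SD, n = 5). With JK07 they stood at 6.15 ± 2.22 and 5.81 ± 1.87 CPM (SD, n = 3). Myosin heavy chain genes are near-identical neighbours, so how reads were divided between them is uncertain.

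Beta-catenin target genes were described because CHD8 is known to restrain them. Of 10 tested (14 found), 0 were higher and 0 lower in each of the 3 comparisons in edgeR. Over all genes tested, 5.73% were higher and 19.7% lower in DOCA against control. The same shares were 14.7% and 2.25% in DOCA plus JK07 against DOCA, and 0% and 0% in DOCA plus JK07 against control. In DOCA against control 1 of the 10 target genes had an unadjusted p under 0.05 in edgeR and 1 passed in DESeq2. The other comparisons had 0 of these target genes by both. Their median log2 change was 0.40 in DOCA against control, -0.14 in DOCA plus JK07 against DOCA and 0.15 in DOCA plus JK07 against control.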
